A study of Mus musculus with 6 samples.

Results

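Amino acid transporters of the Slc1, Slc3, Slc6, Slc7, Slc36, Slc38 and Slc43 families were examined in dendritic cells (DC) sorted from mouse tumors. The members are every gene symbol in the deposited table that begins with Slc1a, Slc3a, Slc6a, Slc7a, Slc36a, Slc38a or Slc43a, other than Slc7a1 and Slc7a2, which makes 60 of 23224 symbols. The name fits most of them but not all. Slc7a6os shares a prefix and encodes no transporter, Slc43a3 carries purine nucleobases, Slc6a8 carries creatine, and several Slc6 genes carry neurotransmitters. The 3 groups held 2 libraries each, all from tumors taken 7 days after MC57-SIY fibrosarcoma cells had been placed under the skin of C57BL/6 hosts. They were ISG+ DC from Rag2-/- hosts, CD103+ DC1 from Rag2-/- hosts and ISG+ DC from WT hosts, so both populations share the Rag2-/- host in one comparison and both hosts share the ISG+ DC population in the other. Tumors were pooled, each sample type came from 2 independent experiments, and the age of the mice and the gate for ISG+ DC are not stated in the labels. SIY is a model peptide antigen, CD103+ DC1 cross-present tumor antigen to CD8+ T cells, and mice without Rag2 lack mature T and B cells.

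Amino acid carriers work as exchangers, as symporters driven by sodium or protons, or as facilitators that let amino acids flow down their gradient. The light chains of the Slc7 family reach the cell surface only when bound to a heavy chain, either Slc3a2 (CD98) or Slc3a1, so 1 heavy chain serves several exchange activities. In immune cells these carriers supply leucine and glutamine for growth signalling through mTORC1 and cystine for glutathione, and a further set works at the lysosome, where it releases or senses the products of protein breakdown.

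Library totals ran from 6023510 to 15368616 estimated counts, with the lowest in CD103+ DC1 replicate 3. That library also stood apart over the members. Its Spearman correlation over the 29 tested members was 0.854 with its own replicate and 0.605 to 0.833 with the ISG+ DC libraries, against 0.967 between the Rag2-/- ISG+ DC libraries and 0.925 between the WT ISG+ DC libraries. The sorted populations were compared on marker lists: 7 of 8 DC1 genes fell and all 6 CD11b+ cDC2 genes rose in Rag2-/- ISG+ DC relative to CD103+ DC1. The conventional DC list was mixed. Flt3 was 3.47-fold lower (edgeR adjusted p = 0.0321) and Itgax 3.15-fold higher (edgeR adjusted p = 0.00303) in Rag2-/- ISG+ DC. Zbtb46 lay lower and Cd74 and Ciita lay higher without an adjusted p under 0.05, and H2-Ab1 overlapped. Macrophage and monocyte markers moved as well, with 13 of 16 higher in Rag2-/- ISG+ DC than in CD103+ DC1 and 1 of 16 lower in Rag2-/- than in WT ISG+ DC. None of these 16 markers was at 0 in all libraries. Their summed level was 3672 and 5700 CPM (counts scaled by library size) in Rag2-/- ISG+ DC, 858 and 1034 in CD103+ DC1, and 11288 and 11416 in WT ISG+ DC. Fibroblast and fibrosarcoma markers summed to 1169 and 700.0 CPM in Rag2-/- ISG+ DC, 1237 and 517 in CD103+ DC1, and 499 and 59.4 in WT ISG+ DC. Rag2 had 40 and 2 estimated counts in Rag2-/- ISG+ DC, 39 and 11 in CD103+ DC1, and 0 and 0 in WT ISG+ DC. The labels do not say which stretch of Rag2 is deleted, so the counts cannot check them, and hosts are named as labelled.

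Of the 60 symbols, 20 were silent, with an estimated count of 0 in all 6 libraries, and 11 more had too few counts to be tested. The 29 tested members comprised 17 with a mean of at least 10 CPM over the 6 libraries and 12 below it. A count of 0 in a group allows up to 3 counts, which is 0.101 CPM in Rag2-/- ISG+ DC, 0.144 CPM in CD103+ DC1 and 0.142 CPM in WT ISG+ DC, and these limits cover counting error only. The neurotransmitter and amino acid symporters of the Slc6 family were mostly silent, 10 of 19. The silent ones included the transporters for noradrenaline (Slc6a2), dopamine (Slc6a3) and serotonin (Slc6a4) and the glycine carrier Slc6a5. Slc6a14, Slc6a19 and Slc6a20a were silent too. In the Slc38 family 5 of 11 were silent (Slc38a3, Slc38a4, Slc38a5, Slc38a8 and Slc38a11). The heavy chain Slc3a1, its known light chain partner Slc7a9, the light chain Slc7a12, the glutamate carrier Slc1a6 and Slc43a1 were also without a count. The 11 under the filter were Slc1a1, Slc36a2, Slc36a3, Slc6a7, Slc6a11, Slc6a15, Slc6a17, Slc6a20b, Slc7a3, Slc7a10 and Slc7a15. Their highest single value was 21 estimated counts, for Slc7a15 in WT ISG+ DC replicate 2. Between 26 and 32 of the 60 symbols had a count in each library. Slc6a20b had 11 and 15 estimated counts in Rag2-/- ISG+ DC, 0 and 0 in CD103+ DC1, and 0 and 1 in WT ISG+ DC.

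**Figure D1:**
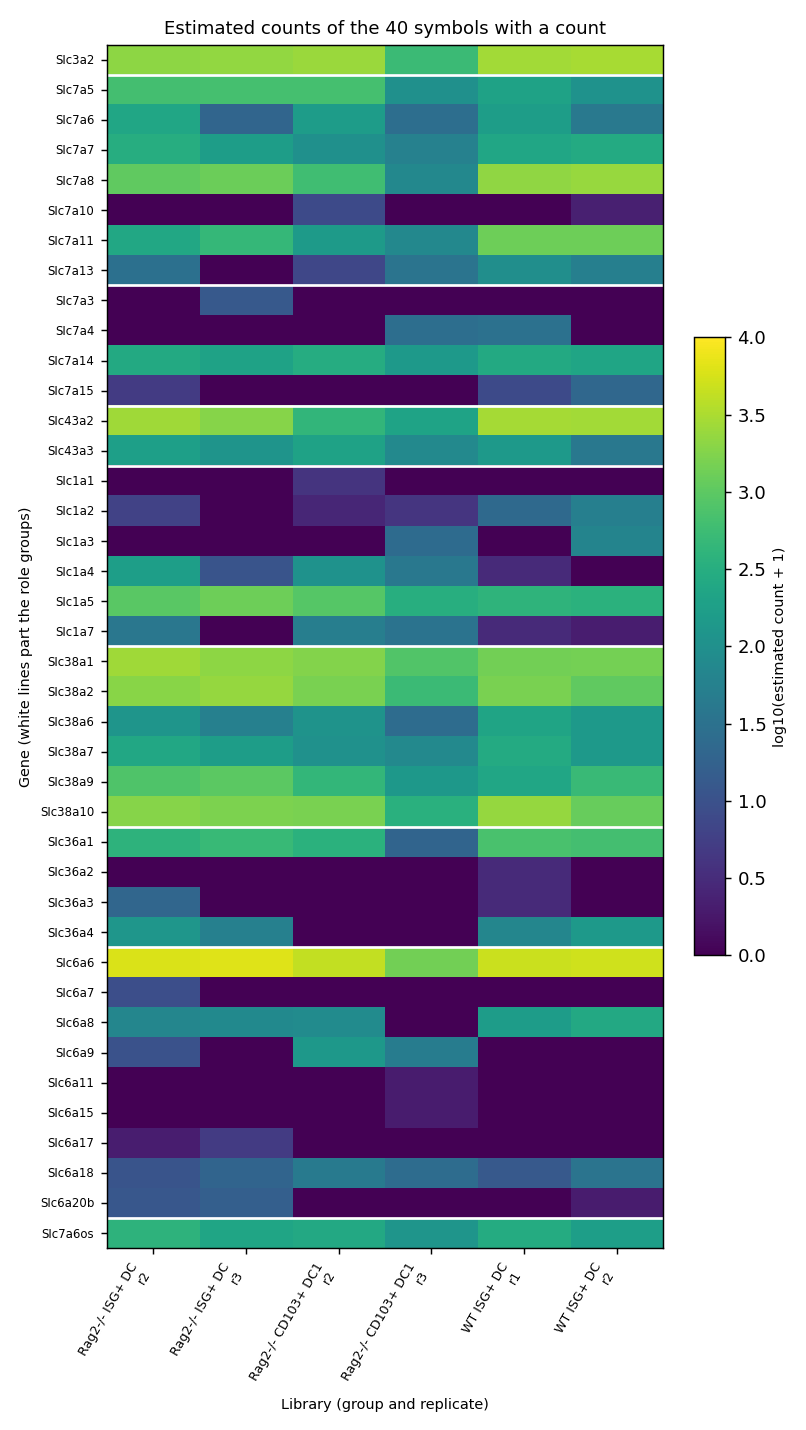
Estimated counts of the 40 symbols with a count in any library (rows, grouped by role) in the 6 libraries (columns), on a log10(count + 1) colour scale. The 20 silent symbols are not drawn; Slc6a6 is bright in every library, and the darkest cells are counts of 0.

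The first comparison asked how the transporter genes of Rag2-/- ISG+ DC differ from those of Rag2-/- CD103+ DC1. One transporter passed the test, Slc43a2, the facilitator LAT4 for branched-chain amino acids, phenylalanine and methionine. It was 4.78-fold higher in Rag2-/- ISG+ DC. None of the 29 tested members fell. With 1 of 29 called at an adjusted p under 0.05 (edgeR quasi-likelihood, Benjamini-Hochberg), or 3.45%, the members' share was near the 3.69% of all 13223 genes called. Of all genes 2.83% were called higher and 0.862% lower. The median log2 fold change was 0.30 over the members and -0.02 over all genes tested. Groups did not overlap in 11 members with higher values in Rag2-/- ISG+ DC (37.9% of 29) and in 5 with lower values (17.2%). Over all genes these shares were 23.9% and 22.0%.

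Slc43a2 had 168 and 135 CPM in Rag2-/- ISG+ DC, against 28.1 and 35.3 CPM in CD103+ DC1. Both ISG+ DC libraries lay far above both CD103+ DC1 libraries, and replicates differed by 1.24-fold and 1.26-fold. Group means were 151 ± 23.2 CPM and 31.7 ± 5.11 CPM (SD, n = 2 each). The log2 fold change was 2.26 ± 0.29 (SE, edgeR adjusted p = 0.00195). It was 2.45 without CD103+ DC1 replicate 3 and 2.09 without replicate 2, and the call held in all 13 alternatives run, with adjusted p-values from 1.56e-10 to 0.035. The macrophage and monocyte markers above moved in the same direction, and their part in this difference was not tested. In bulk libraries fewer cells of a type and less RNA per cell cannot be told apart. Without a stated strand setting, reads from the antisense gene Gm45606, which overlaps exons of Slc43a2 in the GENCODE annotation, cannot be told apart from its own. Slc43a3, the nucleobase carrier of the same family, had 11.3 and 8.53 CPM in Rag2-/- ISG+ DC, against 13.6 and 13.0 CPM in CD103+ DC1 (edgeR adjusted p = 0.90).

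Among the heavy and light chains, Slc3a2 had 131 and 162 CPM in Rag2-/- ISG+ DC, against 169 and 92.5 CPM in CD103+ DC1. These values overlapped, and the log2 fold change was 0.16 ± 0.32 (SE, edgeR adjusted p = 0.891). Its light chain Slc7a8 (LAT2), an exchanger of neutral amino acids, had 66.2 and 92.1 CPM in Rag2-/- ISG+ DC, against 38.9 and 12.7 CPM in CD103+ DC1. The groups did not overlap, but the 2 CD103+ DC1 libraries differed by 3.07-fold and the gene did not pass (log2 fold change 1.60 ± 0.47 SE, edgeR adjusted p = 0.113). Without CD103+ DC1 replicate 3 its log2 change was 1.04 (adjusted p = 0.132). Without CD103+ DC1 replicate 2 it was 2.63. The fit with ISG+ DC of both hosts together sets the mean of the Rag2-/- and WT groups against CD103+ DC1 from Rag2-/- hosts. It therefore also holds the host difference. Slc7a8 did pass in that fit (adjusted p = 0.00973), by DESeq2, at 1.58 (adjusted p = 0.0245), and without a low-count filter (adjusted p = 0.000437). Its adjusted p ran from 0.000437 to 0.635 over the alternatives. Slc7a7 (y+LAT1), which overlaps Oxa1l on the other strand and exports cationic amino acids in exchange for neutral ones, had 19.6 and 12.3 CPM in Rag2-/- ISG+ DC, against 6.65 and 9.59 CPM in CD103+ DC1 (edgeR adjusted p = 0.581). The cystine-glutamate exchanger Slc7a11 (xCT) had 15.4 and 33.1 CPM in Rag2-/- ISG+ DC, against 9.91 and 12.3 CPM in CD103+ DC1 (edgeR adjusted p = 0.264). For both genes the groups were apart without passing. The leucine exchanger Slc7a5 (LAT1) overlapped between populations, at 39.5 and 48.5 CPM in Rag2-/- ISG+ DC and 44.5 and 17.3 CPM in CD103+ DC1.

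**Figure D2:**
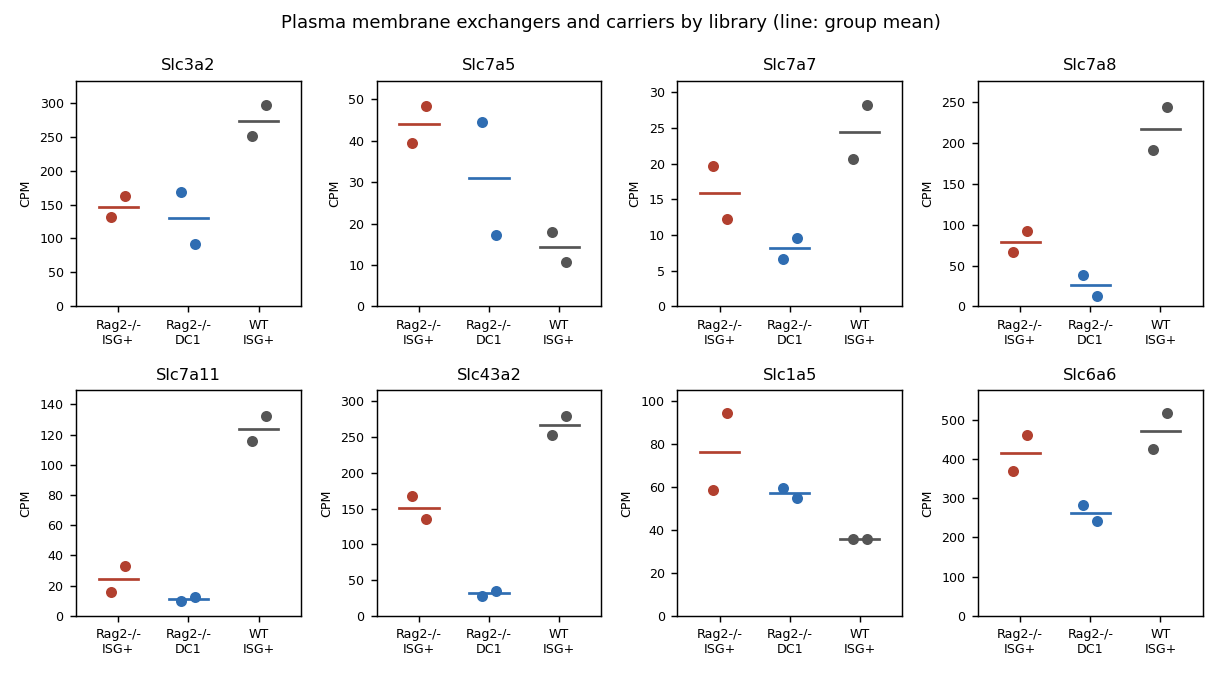
CPM of 8 plasma membrane carriers in each library (points) with the group mean (line), for Rag2-/- ISG+ DC, Rag2-/- CD103+ DC1 and WT ISG+ DC. Slc43a2 is the gene whose Rag2-/- ISG+ DC points (168 and 135 CPM) differ from CD103+ DC1 (28.1 and 35.3 CPM) by a passing test. Its points are highest in WT ISG+ DC (254 and 279 CPM), as are those of Slc7a8, Slc7a11, Slc3a2 and Slc7a7 and the mean of Slc6a6.

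Sodium-coupled carriers were among the better measured members and none of them passed. Slc6a6, the taurine transporter, had 369 and 461 CPM in Rag2-/- ISG+ DC, against 282 and 243 CPM in CD103+ DC1, with a log2 fold change of 0.66 ± 0.25 (SE, edgeR adjusted p = 0.227). Slc38a1 (SNAT1), a glutamine and neutral amino acid carrier, had 167 and 153 CPM in Rag2-/- ISG+ DC, against 121 and 139 CPM in CD103+ DC1. Slc38a2 (SNAT2), known to be induced when cells lack amino acids, had 123 and 172 CPM in Rag2-/- ISG+ DC, against 103 and 91.8 CPM in CD103+ DC1. In these 3 genes the groups did not overlap. The log2 changes of the Slc38 pair, 0.30 ± 0.27 for Slc38a1 and 0.60 ± 0.31 for Slc38a2 (SE), did not pass (edgeR adjusted p = 0.694 for Slc38a1 and 0.414 for Slc38a2). The glutamine exchanger Slc1a5 (ASCT2) overlapped, with 58.6 and 94.1 CPM in Rag2-/- ISG+ DC and 59.4 and 54.6 CPM in CD103+ DC1. Slc6a9, the glycine transporter GLYT1, had its counts mainly in CD103+ DC1. It had 9 and 0 estimated counts in Rag2-/- ISG+ DC, against 135 and 46 in CD103+ DC1, which is 0.566 and 0 CPM against 8.98 and 7.88 CPM. This difference did not pass either (log2 fold change -4.83 ± 2.40 SE, edgeR adjusted p = 0.397), and Slc6a9 shares exons with antisense genes in the annotation.

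Carriers known from the lysosome came next, together with Slc38a10, which is not counted among them here, and none of these genes was called. Slc38a9, which passes the arginine signal of the lysosome to mTORC1, had 49.0 and 72.0 CPM in Rag2-/- ISG+ DC, against 29.7 and 23.0 CPM in CD103+ DC1 (log2 fold change 1.197 ± 0.52 SE, edgeR adjusted p = 0.306). Slc36a1 (PAT1), a proton-coupled carrier of small amino acids, had 24.5 and 35.8 CPM in Rag2-/- ISG+ DC, against 23.4 and 3.08 CPM in CD103+ DC1. Its 2 CD103+ DC1 libraries differed by 7.59-fold, and its log2 fold change was 1.16 ± 0.73 (SE, edgeR adjusted p = 0.524). It was 0.38 without CD103+ DC1 replicate 3, and Slc36a1 passed when replicate 2 was left out, at a log2 change of 3.27 (adjusted p = 0.00546, with a range of 0.00546 to 0.985 over the alternatives). Slc36a4 (PAT4) had 124 and 55 estimated counts in Rag2-/- ISG+ DC, against 0 and 0 in CD103+ DC1. Its mean of 5.91 CPM in Rag2-/- ISG+ DC was at least 41.1-fold the limit of 3 counts over the CD103+ DC1 group, yet the gene narrowly missed the threshold (edgeR adjusted p = 0.0581, with a range of 0.000458 by DESeq2 to 0.211 over the alternatives). Slc38a7, a lysosomal glutamine carrier, had 15.5 and 12.1 CPM in Rag2-/- ISG+ DC and 6.85 and 12.7 CPM in CD103+ DC1. Slc38a10, which overlaps the antisense gene Gm11769, had 118 and 120 CPM in Rag2-/- ISG+ DC, against 105 and 58.2 CPM in CD103+ DC1 (edgeR adjusted p = 0.576). Slc7a14 had 16.7 and 14.7 CPM in Rag2-/- ISG+ DC and 19.7 and 24.8 CPM in CD103+ DC1 (edgeR adjusted p = 0.778). Without CD103+ DC1 replicate 3 the log2 change was -0.18 for Slc3a2, turning its sign, 0.0028 for Slc7a5, 0.20 for Slc38a10 and 1.04 for Slc38a9, and Slc36a4 again missed the threshold (adjusted p = 0.0784). Slc7a6os, the symbol that encodes no transporter, overlapped at 24.6 and 16.04 CPM in Rag2-/- ISG+ DC and 17.02 and 20.4 CPM in CD103+ DC1.

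**Figure D3:**
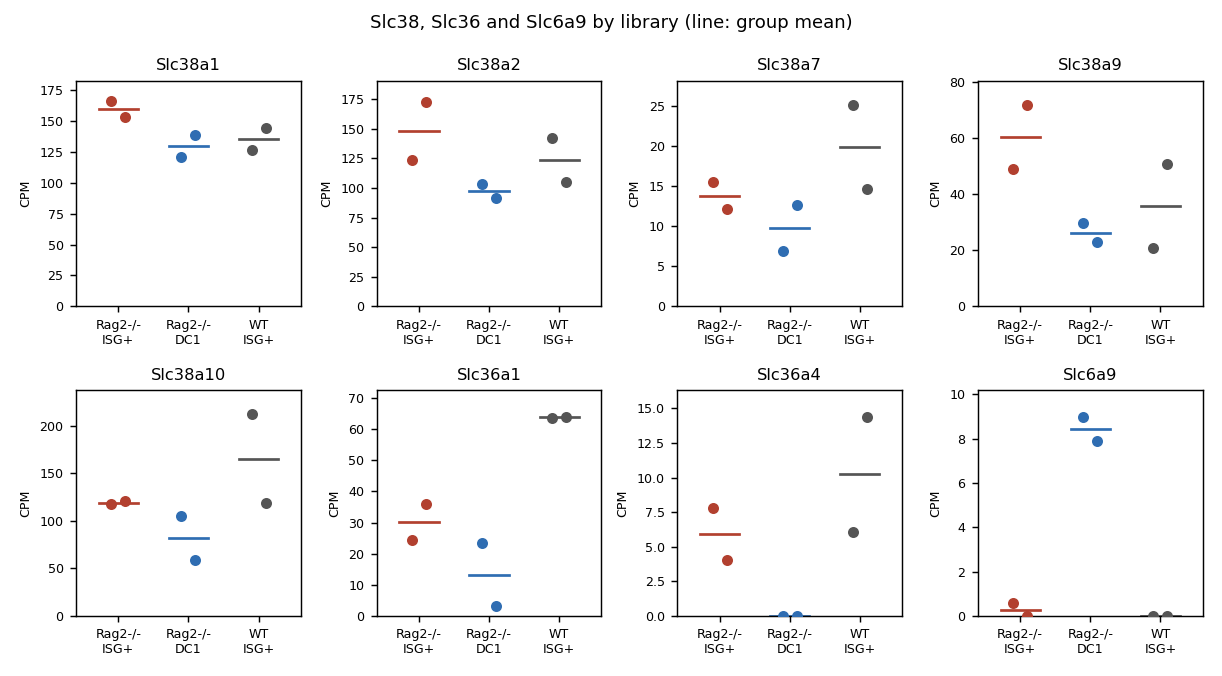
CPM of 8 Slc38, Slc36 and Slc6 genes in each library (points) with the group mean (line). Slc36a4 is at 0 in both CD103+ DC1 libraries, whereas Slc6a9 has 8.98 and 7.88 CPM there and 0 in both WT ISG+ DC libraries; neither passed the test.

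The second comparison asked how the same genes differ in ISG+ DC between Rag2-/- and WT hosts. No member passed. The exchanger Slc7a11 had a fitted level 5.11-fold below that of WT ISG+ DC, the farthest from 0 among the 17 members with a mean of at least 10 CPM. Light chains of CD98 did not share a direction, since Slc7a11, Slc7a8 and Slc7a7 had negative log2 changes, Slc7a5 a positive one, and Slc7a6 overlapped between hosts. The count was 0 of 29 members by edgeR's quasi-likelihood test after adjustment, 7 at an unadjusted p under 0.05 (beside 1307 of 13223 genes), and 2 by DESeq2 (Slc1a4 higher and Slc7a11 lower). Of all 13223 genes 0.552% were called, 0.265% higher and 0.287% lower. Groups were apart in 4 members with higher and 11 with lower values in Rag2-/- ISG+ DC (13.8% and 37.9% of 29), beside 23.1% and 21.4% of all genes. The median log2 fold change was -0.56 over the members and 0.03 over all genes tested. This comparison uses the same Rag2-/- ISG+ DC libraries as the first.

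Slc7a11 had 15.4 and 33.1 CPM in Rag2-/- ISG+ DC, against 116 and 132 CPM in WT ISG+ DC. Both Rag2-/- libraries lay well below both WT libraries, although they differed from each other by 2.15-fold. The log2 fold change was -2.35 ± 0.46 (SE) and missed the threshold narrowly (edgeR adjusted p = 0.0516). Slc7a8 had 66.2 and 92.1 CPM in Rag2-/- ISG+ DC, against 191 and 244 CPM in WT ISG+ DC, a log2 fold change of -1.46 ± 0.47 (SE, edgeR adjusted p = 0.261). The heavy chain Slc3a2 had 131 and 162 CPM in Rag2-/- ISG+ DC, against 250.4 and 297 CPM in WT ISG+ DC, a log2 fold change of -0.90 ± 0.33 (SE, edgeR adjusted p = 0.347). Slc43a2 had 168 and 135 CPM in Rag2-/- ISG+ DC, against 254 and 279 CPM in WT ISG+ DC, a log2 fold change of -0.82 ± 0.28 (SE, edgeR adjusted p = 0.306). In all 4 genes the 2 hosts were apart. Fitted on the 4 ISG+ DC libraries alone, all 4 passed as lower in Rag2-/- ISG+ DC (adjusted p = 0.00302 for Slc7a11, 0.00436 for Slc7a8, 0.0279 for Slc3a2 and 0.0422 for Slc43a2), while 536 of all genes were called in that fit. Slc7a11, Slc7a8 and Slc3a2 passed as well without CD103+ DC1 replicate 2 (adjusted p = 0.0115 for Slc7a11, 0.0146 for Slc7a8 and 0.0499 for Slc3a2) and without replicate 3 of that group (adjusted p = 0.0075 for Slc7a11, 0.00928 for Slc7a8 and 0.0353 for Slc3a2). These CD103+ DC1 libraries enter this comparison through the scaling and the shared estimate of the spread. Over the alternatives the adjusted p ran from 9.03e-05 to 0.469 for Slc7a11, 0.00359 to 0.807 for Slc7a8, 0.0279 to 0.927 for Slc3a2 and 0.0422 to 1 for Slc43a2. Among other marker lists, Csf3r of the neutrophil list was 7.46-fold lower in Rag2-/- ISG+ DC (edgeR adjusted p = 0.035). List sums were 38.7 and 33.8 CPM in Rag2-/- ISG+ DC and 145 and 167 CPM in WT ISG+ DC. Csf3r itself made up 126 and 134 CPM of the WT sums. Cxcr2 went the other way, at 16.1 and 21.5 CPM in Rag2-/- and 8.58 and 13.0 CPM in WT ISG+ DC. S100a8 and Camp were at 0 in all libraries. Flt3 of the conventional DC list was 4.90-fold higher in Rag2-/- ISG+ DC (edgeR adjusted p = 0.0411). Zbtb46, Itgax and Ciita of this list were apart in the same direction without passing. H2-Ab1 lay lower in Rag2-/- ISG+ DC, and Cd74 overlapped. The sums of this list were 16761 and 18015 CPM in Rag2-/- ISG+ DC and 17352 and 17806 CPM in WT ISG+ DC. Cd74 made up 9828 and 10884 CPM of the Rag2-/- sums and 10430 and 10782 CPM of the WT sums. H2-Ab1 made up 5350 and 5749 CPM of the Rag2-/- sums and 5914 and 6018 CPM of the WT sums. The sums therefore say little about Flt3 and Zbtb46. The summed macrophage and monocyte markers were at 3672 and 5700 CPM in Rag2-/- ISG+ DC, against 11288 and 11416 CPM in WT ISG+ DC. Not all of them were lower in Rag2-/- ISG+ DC. The means of Fcgr1 (386 CPM in Rag2-/- and 309 CPM in WT ISG+ DC) and Ly6c2 (33.3 and 11.8 CPM) were larger there. Ccr2 overlapped, and the others of this list were apart with lower values in Rag2-/- ISG+ DC. The part of these markers was not tested.

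The promoters of Slc43a2, Slc7a8 and Slc7a11 are shown to let their starts be compared. Of these genes only Slc43a2 passed in the main fit, and only between populations. Each window covers the 250 bases before a RefSeq start in build GRCm38.p6, whereas the counts were made on mm9, and RefSeq windows were found for 43 of 60 symbols. After the values were seen, 3 motifs were searched on both strands: TGATGNAA, the core of the element bound by ATF4 with C/EBP factors when amino acids run short, TTGCNNAA, a C/EBP core, and TGACNNNGC, the core of the antioxidant response element. Capitals mark matches, and the windows run 5′ to 3′ on the strand of the gene. Slc43a2 has 2 starts, at chr11:75531444-75531693 and chr11:75531862-75532111 on the plus strand, Slc7a8 is at chr14:54781887-54782136 and Slc7a11 at chr3:50443614-50443863, both on the minus strand.
Slc43a2, first start: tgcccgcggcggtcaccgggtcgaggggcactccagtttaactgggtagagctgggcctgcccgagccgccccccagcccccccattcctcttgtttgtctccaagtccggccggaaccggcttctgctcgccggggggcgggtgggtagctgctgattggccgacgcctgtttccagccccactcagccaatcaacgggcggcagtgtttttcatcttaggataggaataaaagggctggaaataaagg
Slc43a2, second start: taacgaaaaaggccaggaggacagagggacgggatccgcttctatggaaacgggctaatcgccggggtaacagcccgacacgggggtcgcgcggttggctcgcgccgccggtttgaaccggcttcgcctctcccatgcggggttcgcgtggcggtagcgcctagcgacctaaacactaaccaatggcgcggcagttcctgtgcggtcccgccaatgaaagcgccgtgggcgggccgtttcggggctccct
Slc7a8: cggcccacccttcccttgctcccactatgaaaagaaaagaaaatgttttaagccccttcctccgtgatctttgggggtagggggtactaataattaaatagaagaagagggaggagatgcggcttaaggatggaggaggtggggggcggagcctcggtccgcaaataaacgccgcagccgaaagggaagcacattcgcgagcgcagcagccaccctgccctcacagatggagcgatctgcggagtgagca
Slc7a11: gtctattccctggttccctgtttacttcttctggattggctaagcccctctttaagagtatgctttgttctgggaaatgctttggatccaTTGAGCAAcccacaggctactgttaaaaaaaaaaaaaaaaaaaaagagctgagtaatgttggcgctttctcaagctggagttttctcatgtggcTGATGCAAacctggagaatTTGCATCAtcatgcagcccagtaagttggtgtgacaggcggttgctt
The Slc7a11 window held TGATGNAA at 66 bases before the start and again, on the opposite strand, at 47 bases before it. TTGCNNAA was at 160 bases before the start, also on the opposite strand. Single matches to TGATGNAA were also in 2 windows of Slc7a7, another CD98 light chain, and 3 of the 63 windows of members held it (4.76%). Among 32851 windows of the same length, 3.45% held TGATGNAA at least once and 0.0396% held it 2 or more times. TTGCNNAA was in 9.56% and TGACNNNGC in 10.2% of all windows, and the motifs did not overlap each other in the Slc7a11 window. The windows of Slc43a2 and Slc7a8 held none of the 3 motifs. A match describes letters and was not tested as a binding site.

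Slc7a5 and Slc1a5 had positive log2 changes between hosts, unlike the 4 genes above. Slc7a5 had 39.5 and 48.5 CPM in Rag2-/- ISG+ DC, against 18.1 and 10.8 CPM in WT ISG+ DC, a log2 fold change of 1.61 ± 0.59 (SE, edgeR adjusted p = 0.348). Slc1a5 had 58.6 and 94.1 CPM in Rag2-/- ISG+ DC, against 35.6 and 35.5 CPM in WT ISG+ DC, a log2 fold change of 1.10 ± 0.39 (SE, edgeR adjusted p = 0.327). Both were apart between hosts and neither passed in any alternative run. The serine and alanine exchanger Slc1a4 (ASCT1) had 174 and 10 estimated counts in Rag2-/- ISG+ DC, against 2 and 0 in WT ISG+ DC, and the Rag2-/- libraries differed by 15.02-fold in CPM (edgeR adjusted p = 0.356). Slc1a4 had 110 and 39 estimated counts in CD103+ DC1. Fibroblast and fibrosarcoma markers summed to 1169 and 700.0 CPM in Rag2-/- ISG+ DC, against 499 and 59.4 CPM in WT ISG+ DC, with 0 of 11 tested called. Of this list Pdgfra, Fap and Lum were at 0 in both WT libraries, whereas the means of Sparc (23.3 CPM in Rag2-/- and 56.5 CPM in WT ISG+ DC), Postn (5.71 and 9.73 CPM) and Thy1 (0.409 and 3.73 CPM) were larger in WT ISG+ DC. Their part was not tested.

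None of the remaining carriers passed between hosts. Slc36a1 had 24.5 and 35.8 CPM in Rag2-/- ISG+ DC, against 63.7 and 64.1 CPM in WT ISG+ DC (edgeR adjusted p = 0.713). Slc7a7 had 19.6 and 12.3 CPM in Rag2-/- ISG+ DC, against 20.6 and 28.1 CPM in WT ISG+ DC, and Slc7a14 16.7 and 14.7 against 24.1 and 22.2 CPM. Slc6a8, the creatine transporter, had 4.28 and 5.76 CPM in Rag2-/- ISG+ DC, against 14.5 and 25.8 CPM in WT ISG+ DC (edgeR adjusted p = 0.737). These groups were apart but did not pass. Slc6a6 overlapped between hosts, with 369 and 461 CPM in Rag2-/- ISG+ DC and 427 and 519 CPM in WT ISG+ DC, as did Slc38a2, at 123 and 172 against 142 and 105 CPM. Slc38a1 was marginally apart, at 167 and 153 CPM in Rag2-/- ISG+ DC, against 126 and 144 CPM in WT ISG+ DC. Slc38a9 overlapped, at 49.0 and 72.0 CPM in Rag2-/- ISG+ DC and 20.9 and 51.0 CPM in WT ISG+ DC, and so did Slc38a10, at 118 and 120 CPM in Rag2-/- ISG+ DC and 212 and 119 CPM in WT ISG+ DC. Slc38a7 (15.5 and 12.1 against 25.1 and 14.7 CPM), Slc43a3 (11.3 and 8.53 against 12.6 and 3.89 CPM) and Slc7a6os (24.6 and 16.04 against 25.4 and 17.6 CPM) overlapped as well.

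**Figure D4:**
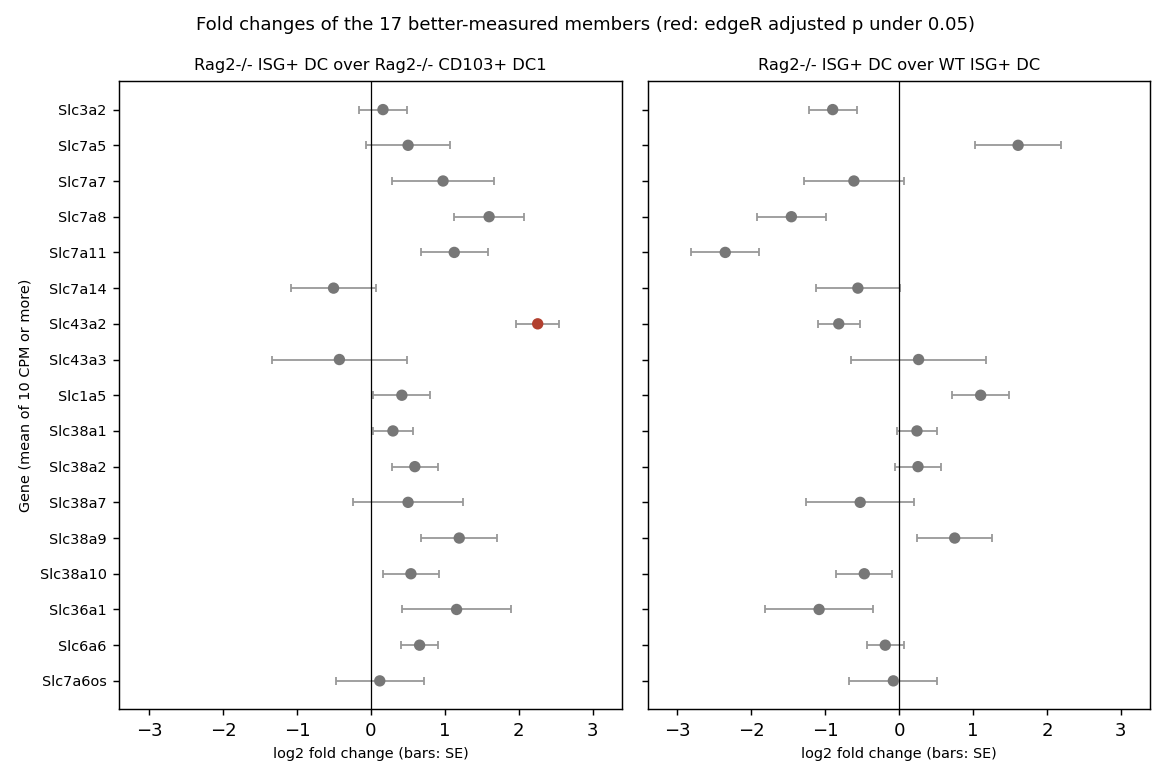
Log2 fold changes with standard errors for the 17 members with a mean of at least 10 CPM, for Rag2-/- ISG+ DC over CD103+ DC1 (left) and over WT ISG+ DC (right). Red marks the 1 passing value, Slc43a2 at 2.26 on the left, and Slc7a11 at -2.35 lies farthest from 0 on the right.

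Low members, with a mean under 10 CPM, varied widely between replicates. Slc7a6, which pairs with CD98 as y+LAT2, had 14.4 and 1.39 CPM in Rag2-/- ISG+ DC, 10.7 and 4.62 CPM in CD103+ DC1 and 14.8 and 4.09 CPM in WT ISG+ DC. The glutamate carriers Slc1a2 and Slc1a3 each had under 6.5 CPM in every library. Slc1a3 had 24 estimated counts in CD103+ DC1 replicate 3 and 63 in WT ISG+ DC replicate 2 and was at 0 in the other 4 libraries. Slc7a4 was found in 2 libraries of different groups, with 27 and 30 estimated counts. Slc38a6 had 7.55 and 3.94 CPM in Rag2-/- ISG+ DC, 7.38 and 4.28 CPM in CD103+ DC1 and 18.9 and 14.3 CPM in WT ISG+ DC. Slc1a7, Slc6a18 and Slc7a13 had under 9 CPM in every library. Such single-library counts gave fitted changes that are not measured sizes. With the 3 members that had a group at 0 set at their limit in each comparison, the medians stayed at 0.30 and -0.56. Each of these members kept its side of the median, so the medians could not move and were not tested by this step.

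Levels were set against each other per length, as CPM per kilobase of the longest annotated coding transcript. Among the light chains of CD98, Slc7a8 had 19.4 CPM per kilobase in Rag2-/- ISG+ DC, 6.31 in CD103+ DC1 and 53.3 in WT ISG+ DC (group means), and Slc7a5 had 12.5, 8.78 and 4.10 in the same order. In both ISG+ DC groups every Slc7a8 library lay above every Slc7a5 library, whereas in CD103+ DC1 they overlapped (9.52 and 3.10 for Slc7a8, 12.6 and 4.92 for Slc7a5). Slc7a7 had 7.00, 3.56 and 10.7, and Slc7a11 2.63, 1.21 and 13.4 CPM per kilobase. The place of Slc7a11 depends on its long transcript, since with the shortest annotated one it would be at 10.03, 4.60 and 51.3. The heavy chain Slc3a2 had 52.1, 46.4 and 97.3 CPM per kilobase, and in each library it lay above each of these 4 light chains. Slc6a6 had 67.1, 42.4 and 76.5 CPM per kilobase.

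Other genes of amino acid use were described by 5 lists, with 157 entries, all found in the table. The counts called in each list stand beside the shares over all genes. These were 2.83% higher and 0.862% lower between populations, and 0.265% higher and 0.287% lower between hosts. In the amino acid response list, which follows the ATF4 pathway, 1 of 36 tested genes rose and none fell in Rag2-/- ISG+ DC relative to CD103+ DC1, and 1 fell relative to WT ISG+ DC. Both calls were Cebpb, a myeloid transcription factor and partner of ATF4, at 85.8 and 121 CPM in Rag2-/- ISG+ DC, 32.6 and 16.4 CPM in CD103+ DC1 and 552 and 549 CPM in WT ISG+ DC. Its log2 changes were 2.06 ± 0.35 (SE, edgeR adjusted p = 0.00867) between populations and -2.41 ± 0.35 (SE, edgeR adjusted p = 0.0194) between hosts. The medians of this list were -0.21 and 0.20. In the list of lysosomal amino acid sensing and mTORC1, 1 of 38 fell in each comparison. That gene was Fnip2, a partner of folliculin, at 76.5 and 76.6 CPM in Rag2-/- ISG+ DC, 277 and 208 CPM in CD103+ DC1 and 216 and 278 CPM in WT ISG+ DC (log2 changes -1.66 and -1.69, edgeR adjusted p = 0.00835 and 0.0335).

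Of 23 tested other amino acid and peptide carriers, 3 rose and none fell in Rag2-/- ISG+ DC relative to CD103+ DC1, and none passed between hosts. Slc15a3, an endolysosomal histidine and peptide carrier, had 124 and 167 CPM in Rag2-/- ISG+ DC, against 31.0 and 18.0 CPM in CD103+ DC1 (5.9-fold, edgeR adjusted p = 0.00284). Slc15a4, which serves endosomal Toll-like receptor signalling, rose 3.61-fold (edgeR adjusted p = 0.0425). Slc29a3, which rose 5.69-fold (edgeR adjusted p = 0.00711), is a lysosomal nucleoside carrier and not an amino acid carrier. In glutamine, branched-chain and tryptophan metabolism 1 of 25 fell between populations and none passed between hosts. It was Got2, the mitochondrial aspartate aminotransferase, at 85.9 and 39.9 CPM in Rag2-/- ISG+ DC, against 219 and 175 CPM in CD103+ DC1 (log2 fold change -1.65 ± 0.39 SE, edgeR adjusted p = 0.0468).

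The list of glutathione synthesis and cystine use also holds genes that do neither, among them Hmox1, Nqo1 and Keap1. Of its genes 1 of 18 tested rose between populations and 1 fell between hosts. Gpx1, a glutathione peroxidase, rose 1.96-fold relative to CD103+ DC1 (edgeR adjusted p = 0.0468). Hmox1, the heme oxygenase, had 62.4 and 109 CPM in Rag2-/- ISG+ DC, against 611 and 733 CPM in WT ISG+ DC, and fell by 2.97 ± 0.45 (SE) on the log2 scale (edgeR adjusted p = 0.0212). The list's median log2 change between hosts was -0.90, beside 0.03 over all genes. Many calls in these lists were lost with 1 library fewer. Cebpb, Fnip2 and Hmox1 lost their host calls without any 1 of the 4 ISG+ DC libraries (adjusted p = 0.0543 to 0.398), with log2 changes of -2.68 to -2.19 for Cebpb, -1.86 to -1.49 for Fnip2 and -3.43 to -2.62 for Hmox1. Between populations, without Rag2-/- ISG+ DC replicate 3 none of the calls held: Cebpb was at 1.80, Fnip2 at -1.66, Slc15a3 at 2.34, Slc15a4 at 2.13, Slc29a3 at 2.39, Got2 at -1.20 and Gpx1 at 0.87 on the log2 scale. Without replicate 2 of that group Cebpb and Slc15a3 kept their calls. Slc15a4, Got2 and Gpx1 also lost theirs without either WT ISG+ DC library, and Slc15a4 without CD103+ DC1 replicate 3. The same 3 genes lost their calls when fitted on the 4 libraries compared alone (adjusted p = 0.0704 for Slc15a4, 0.0761 for Got2 and 0.119 for Gpx1), Gpx1 with RLE size factors (adjusted p = 0.0549), and Fnip2 with ISG+ DC of both hosts together (log2 change -0.82, adjusted p = 0.056). Without CD103+ DC1 replicate 3 the log2 changes were 1.68 for Cebpb, 2.25 for Slc15a3, 2.02 for Slc29a3 and 1.79 for Slc15a4. They were -1.83 for Fnip2, -1.78 for Got2 and 0.87 for Gpx1 in the same fit.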

How the data were processed

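Values are the authors' deposited RSEM estimated counts, not normalized, with 1 column per library and 1 row per symbol; 16.1% of values are not whole (tolerance 0.005). Bowtie 1.2.3, RSEM 1.3.1 and build mm9 are named per the submitters' processing notes. A stranded low-input total RNA kit was used, per the labels' protocols, whereas the molecule label reads polyA RNA. No source used here gives the annotation or strand setting. RSEM shares reads between similar genes by a model, so close copies are uncertain.

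After rounding, edgeR 4.0.16 under R 4.3.3 was used: filterByExpr (13223 genes), TMM factors, and 1 quasi-likelihood fit over 6 libraries, with Benjamini-Hochberg adjustment over all genes, two-sided, threshold 0.05. CPM uses TMM-scaled totals. The SE comes from the F statistic. DESeq2 1.42.0 was an alternative. The procedure was also run on simulated counts with the same spread for every gene, which does not show its error rate in these data. P-values rest on the spread between these libraries.

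Named were members that passed or had a mean of at least 10 CPM, and per list up to 3 passing genes with the smallest p; other members were named after their values were seen. The members and lists were chosen with earlier results of these data known. Transcript lengths come from GENCODE M21 (GRCm38), promoters from RefSeq. Not every silent member is reported here by name.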

Additional observations from a re-analysis of the deposited data

How the results depend on the processing

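The call of Slc43a2 between populations held in all 13 alternatives run, with log2 changes from 2.09 to 2.67, and no value that passed reversed its direction. Between populations 1 member was called, or 3 by DESeq2, 3 without a low-count filter, 3 with a replicate block (Slc43a2, Slc7a8 at adjusted p = 0.00751 and Slc36a4 at 0.026) and 4 with ISG+ DC of both hosts together, and 1 to 4 with 1 library left out, the 4 without CD103+ DC1 replicate 2 including Slc6a8, at 0 in the lone CD103+ DC1 library. Between hosts 0 members were called, or 2 by DESeq2, 2 without a low-count filter, 4 from the 4 libraries compared alone and 1 with a replicate block (Slc7a11), and 0 to 3 with 1 library left out. Over all genes 488 were called between populations, 1112 by DESeq2, 1087 without a filter, 1157 with both hosts together, 715 with a replicate block and 121 to 1736 with 1 library left out. Between hosts 73 were called, 565 by DESeq2, 555 without a filter, 536 from the 4 libraries alone, 258 with a replicate block and 0 to 509 with 1 library left out. The cause was not tested. In the fit with both hosts together WT ISG+ DC enters the comparison of populations, so that fit also holds the host difference. The log2 change of 2.67 for Slc43a2 comes from it. The replicate block ended the calls of Gpx1 between populations (adjusted p = 0.154) and Fnip2 between hosts (0.0603). Replicate numbers were not used as pairs in the main fit, since the labels do not say that a number marks a shared experiment. Both Rag2-/- groups hold numbers 2 and 3, whereas WT ISG+ DC holds numbers 1 and 2. In the Rag2-/- groups the deviations of the number 2 libraries from the group means correlated at -0.0024 over 13223 genes. When 1 library was left out, a group of 1 was assumed to vary like the others.

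With 2 libraries per group and 6023510 to 15368616 counts, low members could not be resolved: 11 had too few counts to test, and differences of Slc36a4, Slc6a9 and Slc1a4 rest on under 200 counts per library.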
